A study of Homo sapiens with 6 samples.

Results

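The genes described here encode the enzymes that write and erase methyl groups on DNA, on histone lysines and on arginines. They were taken by symbol: KMT, KDM, SETD, SETDB, DNMT, PRMT and SUV39H genes with their number, and the singly named TET1 to TET3, NSD1 to NSD3, EZH1, EZH2, EHMT1, EHMT2 and DOT1L, without antisense genes. In all, 55 of the 14779 genes with a named row on the array met this rule, 34 methyltransferases and 21 demethylases, each with 1 row. TET3, DOT1L and some other genes of these families, among them SETDB1, SETDB2, KMT2A and SETD1B, were not analysed here. RNA came from the established neuroblastoma line BE(2)-C, grown in serum-containing medium and treated for 2 days with the vehicle DMSO (3 samples, a to c) or with 10 µM NCT-503 (3 samples, a to c). NCT-503 inhibits PHGDH, the enzyme that opens serine synthesis. Both groups are of this 1 line. Each sample was hybridised to 1 Affymetrix whole-transcript array, so precision is limited by the number of arrays. The labels call the samples independent without naming separate cultures; the spread behind the p-values may therefore be technical.

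Methyltransferases pass a methyl group from S-adenosylmethionine to their substrate. The DNMT enzymes methylate cytosine in DNA, SET-domain enzymes methylate lysines and PRMT enzymes methylate arginines. Methyl marks on histones are read by position: on histone H3, lysine 4 (H3K4) methylation is a mark of active genes, H3K9 and H3K27 methylation of silenced chromatin, and H3K36 methylation of transcribed gene bodies. Demethylases reverse these marks: KDM1 enzymes use a flavin cofactor, while JmjC-domain KDM enzymes and TET enzymes use iron and 2-oxoglutarate. Serine feeds the one-carbon cycle from which S-adenosylmethionine is regenerated, and 2-oxoglutarate is a by-product of the PSAT1 step of serine synthesis.

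The arrays were alike in their medians over all rows, between 4.30 and 4.33 on the deposited log2 scale. Their 75th percentiles over all rows were lower with NCT-503. They were 6.166, 6.19 and 6.16 in DMSO a, b and c and 6.085, 6.077 and 6.034 in NCT-503 a, b and c. The part of this difference in the results below was not tested. Of the 11 adrenergic neuroblastoma markers, 9 were measured, and all 9 lay above the median DMSO level of the genes tested (5.02), from 6.05 (TH) to 10.15 (CHGB). Of these 9, 3 were called higher and 4 lower with NCT-503, with the largest changes in the secretory granule genes CHGA (-1.23) and CHGB (-1.13). Markers of other cell types were few on the array. The mean level of the 2 measured endothelial markers lay between 2.99 and 3.21 in DMSO and between 3.07 and 3.18 with NCT-503, and that of the 4 measured epithelial markers between 4.62 and 4.74 and between 4.90 and 5.01. For the 3 measured fibroblast markers it was 6.14 to 6.18 and 5.74 to 5.89, with 2 called lower. For the 4 measured Schwann or glial markers it was 4.38 to 4.51 and 4.91 to 4.96, with NGFR called higher. For the 2 measured leukocyte markers it was 4.57 to 5.11 and 5.74 to 6.01, with CD68, also a lysosomal protein of many cells, called higher. The part of these shifts in the results below was not tested.

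With NCT-503, transcripts of methylation enzymes were more often lower than higher. At an adjusted p under 0.05 (limma, Benjamini-Hochberg over all genes tested), 21 of 55 fell and 7 rose, which is 38.2% and 12.7%. Over all genes tested 17.1% were called lower and 16.4% higher. PRMT6, an arginine methyltransferase, fell most (log2 change -1.43), followed by the histone demethylases KDM4D (-0.93) and KDM2A (-0.91) and the H3K4 methyltransferase KMT2D (-0.83). The largest rise was that of the demethylase KDM7A (0.73, 1.66-fold). Changes were small in most members: of the 55, 9 were called lower and 1 higher by at least 1.5-fold, and PRMT6 alone reached 2-fold. Of all genes tested, 8.86% were called lower and 4.96% higher by at least 1.5-fold. The median change of the members was -0.13, against 0.06 over all genes. The arrays of the groups did not overlap in 43 members, 27 lower and 16 higher with NCT-503; over all genes this held for 47.9%, with 22.4% lower and 25.4% higher.

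These genes are well expressed, and calls are more frequent among such genes. The median member lay at the 78.3rd percentile of mean level, and 50 of the 55 lay above the median. Among the genes above the median, 27.2% were called lower and 23.0% higher, and of those 50 members 21 fell (42.0%) and 6 rose. Thus the share called in either direction was 54.0% in these members and 50.2% in genes of that level. The median change was -0.15 in these members and -0.006 in genes of that level. The arrays of the groups did not overlap in 39 of these 50 members, 27 lower and 12 higher. In genes of that level this held for 5011 of 7389, 2601 lower and 2410 higher. By at least 1.5-fold, 9 of these members were called lower and 1 higher, and of the 7389 genes 983 lower and 598 higher. The count of 7 rises depended on single arrays, with 4 called higher without DMSO a, without DMSO c or without NCT-503 a. Leaving out any 1 array left 18 to 20 falls.

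**Figure D1:**
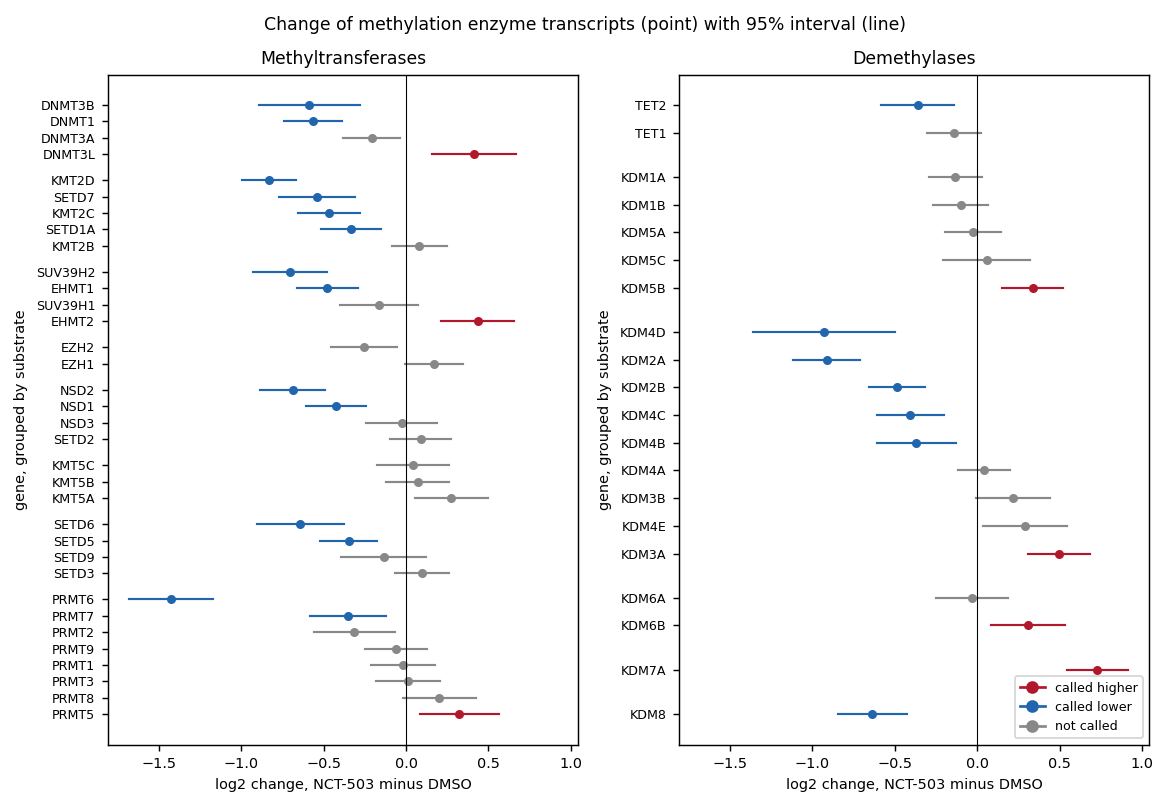
Log2 change of each gene (NCT-503 minus DMSO, x axis) with its 95% interval from limma, for 34 methyltransferases (left) and the demethylases other than KDM5D (right), grouped by substrate. Blue points, called lower, outnumber red points, called higher, in the left panel (14 against 3), and PRMT6 lies farthest to the left.

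Methyltransferases and demethylases were compared by counts and medians. The classes count DNMT3L, a member called higher that has no catalytic activity of its own, as a methyltransferase. They count KDM8, a member called lower whose histone demethylase activity is disputed, as a demethylase. Of 34 methyltransferases, 14 fell (41.2%) and 3 rose (8.82%), with a median change of -0.19. Of 21 demethylases, 7 fell (33.3%) and 4 rose (19.0%), with a median of -0.03. The interquartile range of the methyltransferases ran from -0.48 to 0.08 and that of the demethylases from -0.37 to 0.23, so the classes overlapped widely, and their difference was not tested. Centring the arrays shifts every gene alike, so medians are read against that of all genes: with arrays centred on the median it was 0.11 for all genes, 0.01 for demethylases and -0.14 for methyltransferases, and centred on the 75th percentile 0.13, 0.04 and -0.12. After quantile normalization these medians were 0.04, 0.03 and -0.13. The sign of the demethylase median thus follows from the scaling, while both classes lay below all genes under each of them. Genes above the median level had a median of -0.006 on the deposited scale (interquartile range -0.33 to 0.26). The demethylase median was close to that value. Rises in particular rested on few calls, as 1 methyltransferase was called higher without DMSO a or without NCT-503 a, and 2 demethylases without DMSO c.

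The mean deviation of a class from its genes' 6-array means shows each array. For methyltransferases it was 0.089, 0.149 and 0.086 in DMSO a, b and c and -0.071, -0.117 and -0.137 in NCT-503 a, b and c. For demethylases it was 0.063, 0.058 and 0.010 in DMSO and -0.021, -0.064 and -0.046 with NCT-503. In both classes every DMSO array lay above every NCT-503 array, and over all genes the same measure stayed between -0.006 and 0.007.

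**Figure D2:**
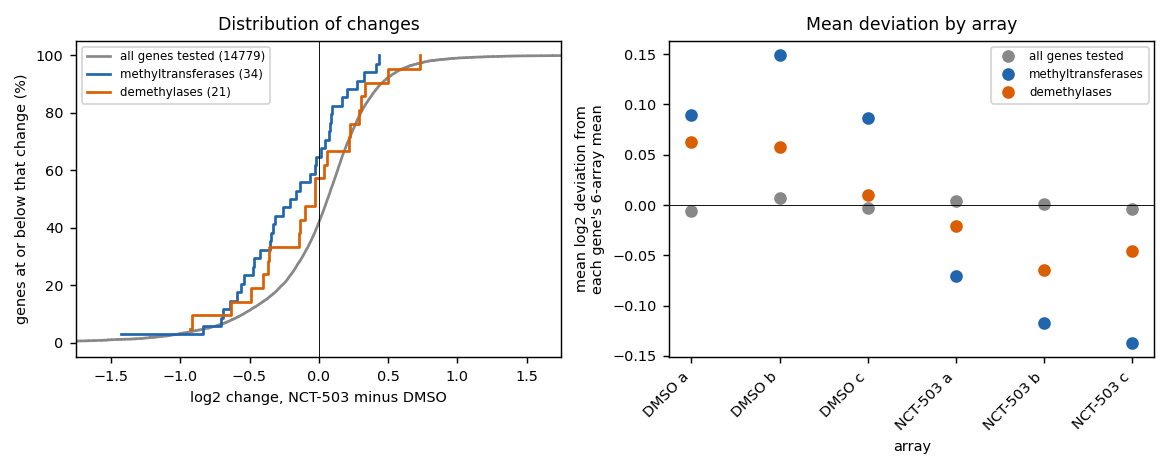
Left, share of genes (y axis, percent) at or below a given log2 change (x axis) for methyltransferases, demethylases and all genes tested. Right, mean log2 deviation of each class from its genes' 6-array means, by array. The methyltransferase curve lies left of the all-gene curve over the middle of the range, and the methyltransferase points run from 0.149 in DMSO b to -0.137 in NCT-503 c.

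Promoters were read for a match to the E2F motif, the site of the factors that switch on replication genes. The motif was spelled TTTGGCGC, TTTCGCGC, TTTCCCGC or TTTGCCGC on either strand, in the 300 bases from 250 before to 50 after each start site listed by RefSeq (GRCh38.p14). Of the 55 members, 52 had at least 1 listed promoter, 80 in all. The motif was in 6 of these 80 promoters (7.50%), against 4.12% of the 14835 promoters of genes tested and 3.31% of all 35116. Its holders were DNMT1, NSD2 and PRMT7, which fell, and EZH2, EZH1 and KDM1B, which did not pass. The motif was in 3 of 31 promoters of members called lower (9.68%) and 3 of 41 of members not called (7.32%). It was in 0 of 8 promoters of members called higher, too few to compare. The cell cycle homology motif CHR (TTTGAA, either strand) was in 7 of 80 (8.75%, against 12.1% for genes tested), those of NSD2, SUV39H2, KDM2A, KDM4D and TET2, which fell, and DNMT3A and PRMT8, which did not pass. The ATF4 response motif TGATGNAA was in none of the 80 (2.45% for genes tested). Promoters of members were rich in G and C, with a median of 68.0% against 62.7% for genes tested. A match describes the letters and not a bound site. The 3 promoters of falling members that held the E2F motif, and that of EZH2, are shown from 120 bases before to 30 after the start, 5′ to 3′ on the gene's strand, with the motif in capitals.
DNMT1, chr19:10194924-10195073, minus strand: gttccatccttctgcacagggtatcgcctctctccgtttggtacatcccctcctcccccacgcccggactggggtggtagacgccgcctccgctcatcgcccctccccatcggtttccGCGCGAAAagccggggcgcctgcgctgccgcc
NSD2, chr4:1871273-1871422, plus strand: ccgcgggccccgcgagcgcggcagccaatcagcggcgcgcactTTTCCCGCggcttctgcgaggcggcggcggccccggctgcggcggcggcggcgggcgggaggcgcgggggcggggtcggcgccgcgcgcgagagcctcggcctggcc
PRMT7, chr16:68310994-68311143, plus strand: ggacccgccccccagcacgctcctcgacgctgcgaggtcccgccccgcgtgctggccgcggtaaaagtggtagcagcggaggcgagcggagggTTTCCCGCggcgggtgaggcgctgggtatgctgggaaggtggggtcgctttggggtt
EZH2, chr7:148884262-148884411, minus strand: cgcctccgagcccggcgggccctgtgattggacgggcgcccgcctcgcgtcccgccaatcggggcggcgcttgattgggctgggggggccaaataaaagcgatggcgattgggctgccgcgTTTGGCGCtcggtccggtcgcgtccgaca
In DNMT1 the motif begins 2 bases before the start site and in EZH2 right after it, whereas in NSD2 and PRMT7 it lies farther upstream, at bases 44 and 94 of the stretch shown.

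DNA methylation is copied after replication by DNMT1, the maintenance enzyme, and set anew by DNMT3A and DNMT3B. DNMT1 read 9.10, 9.12 and 9.15 in DMSO a, b and c and 8.65, 8.53 and 8.50 with NCT-503, so the groups were well apart. It fell by 0.56 ± 0.08 on the log2 scale (SE, 3 arrays per group, limma adjusted p = 0.00138). DNMT3B read 5.48, 5.98 and 5.73 in DMSO and 5.15, 5.22 and 5.07 with NCT-503, a wider spread in DMSO than for DNMT1, and fell by 0.59 ± 0.13 (adjusted p = 0.0123). DNMT3A was 6.63, 6.57 and 6.65 in DMSO and 6.46, 6.41 and 6.35 with NCT-503. Its groups did not overlap, yet its change of -0.21 ± 0.07 did not pass (adjusted p = 0.0629). It passed with trended, robust moderation of the spread (0.0451) and without genes below the 25th percentile of level. DNMT3L, a partner of the DNMT3 enzymes without catalytic activity of its own, went the other way from a low level. It read 3.77, 3.998 and 3.97 in DMSO and 4.31, 4.18 and 4.49 with NCT-503 and rose by 0.41 ± 0.11 (adjusted p = 0.0234). That call was lost without DMSO a (adjusted p = 0.0756), NCT-503 c (0.0602) or NCT-503 a (0.0551), and was kept in the other leave-one-out fits (from 0.0235).

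TET enzymes oxidise methylcytosine, the first step of its removal. TET2 read 8.06, 8.16 and 8.20 in DMSO and 7.72, 7.68 and 7.93 with NCT-503 and fell by 0.36 ± 0.09 (adjusted p = 0.0233). This call held without DMSO a (0.0404) or NCT-503 c (0.0123) and was lost when any of the other arrays was left out (adjusted p up to 0.0764, without DMSO c); it was also lost with arrays centred on the 75th percentile. TET1 read 8.79, 8.77 and 8.74 in DMSO and 8.60, 8.67 and 8.61 with NCT-503, a change of -0.14 with a 95% interval from -0.30 to 0.02. It did not pass in the main fit, but did with trended, robust moderation of the spread (adjusted p = 0.0354).

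Of 10 measured genes of DNA methylation partners and readers, 7 fell (70.0%, against 17.1% of all genes and 27.2% of those above the median level) and 0 rose (0 at an unadjusted limma p under 0.05). Their median change was -0.50, and no test of the list was made. The 3 others were MBD2 (-0.22), MBD1 (-0.06) and ZBTB33 (0.15). UHRF1, which brings DNMT1 to newly copied DNA, read 7.94, 7.97 and 8.11 in DMSO and 6.72, 6.61 and 6.62 with NCT-503. It fell by 1.36 ± 0.08 (adjusted p = 6.71e-05). TDG, the glycosylase that cuts out oxidised methylcytosine, fell by 0.71 ± 0.10, and TRDMT1, which despite its family name methylates transfer RNA, by 0.70 ± 0.09. PCNA, the replication clamp to which DNMT1 binds, is neither a member nor in any list and was named singly. It fell by 2.04 ± 0.09, and the part of that fall in the changes of DNMT1 and UHRF1 was not tested.

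H3K4 methylation is placed by large complexes around KMT2 and SETD1 enzymes. Of 5 measured H3K4 enzymes, 4 fell (80.0%, against 27.2% of all genes above the median level), which is a count of few genes and was not tested as a group. KMT2D, the main enhancer H3K4 monomethyltransferase with KMT2C, read 8.10, 8.15 and 8.09 in DMSO and 7.24, 7.30 and 7.31 with NCT-503. This fall of 0.83 ± 0.07 (adjusted p = 0.000202) was many times the spread within either group. KMT2C read 9.50, 9.51 and 9.60 in DMSO and 8.98, 9.09 and 9.14 with NCT-503, a fall of 0.47 ± 0.08 (adjusted p = 0.00391). SETD7, which also methylates non-histone proteins, fell by 0.54 ± 0.10 (adjusted p = 0.00514), from 7.74, 7.79 and 7.85 to 7.34, 7.07 and 7.35. SETD1A fell by 0.33 ± 0.08 (adjusted p = 0.0147), from 6.57, 6.54 and 6.49 to 6.11, 6.23 and 6.26, and lost its call without DMSO a (0.0536; 0.0221 to 0.0442 without any other array) and after quantile normalization. KMT2B, which acts at promoters, had a change of 0.08 (95% interval -0.08 to 0.25). It did not pass, and its difference from KMT2C and KMT2D was not tested.

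Among 12 measured partners of the H3K4 complexes, 3 fell and 1 rose, and the median change was -0.01. The share of falls lay between the 17.1% of all genes and the 27.2% of those above the median level. The share of rises lay under the 16.4% and 23.0% of these sets. Falls were thus no more frequent in this list than in genes above the median level, and the list was not tested. HCFC1, a scaffold of the SETD1 complexes, fell by 1.18 ± 0.08, from 8.94, 8.89 and 8.87 to 7.84, 7.72 and 7.62. PAXIP1 and PAGR1, which belong to the KMT2C and KMT2D complexes, fell by 1.00 ± 0.10 and 0.58 ± 0.11. HCFC2, a paralog of HCFC1, rose by 0.75 ± 0.08. The core subunits WDR5 (-0.06) and DPY30 (0.01), which all these complexes share, did not pass.

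The measured H3K9 enzymes did not all move one way. SUV39H2, which builds H3K9 trimethylation in heterochromatin, read 7.29, 7.39 and 7.22 in DMSO and 6.69, 6.44 and 6.65 with NCT-503. It fell by 0.70 ± 0.10 (adjusted p = 0.00145). Its paralog SUV39H1 read 5.91, 5.97 and 5.71 in DMSO and 5.71, 5.80 and 5.58 with NCT-503; these groups overlapped, and its change of -0.16 did not pass (adjusted p = 0.256). EHMT1 and EHMT2 form a heterodimer that places H3K9 mono- and dimethylation, and their transcripts moved in opposite directions. EHMT1 fell from 7.03, 7.04 and 6.90 to 6.58, 6.51 and 6.46, by 0.48 ± 0.08 (adjusted p = 0.00349). EHMT2 rose from 6.84, 6.92 and 6.75 to 7.37, 7.32 and 7.12, a change of 0.43 ± 0.09 (adjusted p = 0.0113).

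The difference between the EHMT1 and EHMT2 changes was -0.91 ± 0.05 (SE over 3 arrays per group). An exact two-sided permutation test cannot go below p = 0.1 with 3 arrays against 3, so it could not pass for this or any other of the 8 families with exactly 2 measured members. The differences are therefore given as values. SUV39H1 and SUV39H2 differed by 0.54 ± 0.14, EZH1 and EZH2 by 0.43 ± 0.08, and KDM2A and KDM2B, which both fell, by -0.43 ± 0.06.

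Of 10 measured H3K9 readers and partners, 5 fell and 1 rose, and the median change was -0.26. Of all genes 17.1% fell and 16.4% rose, and of those above the median level 27.2% and 23.0%. The list was not tested. MPHOSPH8, a reader in the HUSH silencing complex, fell by 0.95 ± 0.10, and CBX5, the heterochromatin protein HP1 alpha, by 0.63 ± 0.07. The other HP1 genes CBX1 (-0.02) and CBX3 (-0.01) did not pass. WIZ, a zinc finger partner of the EHMT heterodimer, rose by 0.40 ± 0.11 (adjusted p = 0.0279). The WIZ call was lost without NCT-503 a (0.0804) or c (0.0522) and without DMSO b (0.0817) or c (0.0777).

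H3K27 methylation is the work of polycomb repressive complex 2, with EZH2 as its catalytic subunit in dividing cells and EZH1 as the alternative. EZH2 read 8.04, 8.28 and 8.14 in DMSO and 7.89, 7.93 and 7.88 with NCT-503, and EZH1 read 7.77, 7.78 and 7.85 in DMSO and 8.04, 7.95 and 7.92 with NCT-503. Neither pair of groups overlapped, with EZH2 lower and EZH1 higher. The change of EZH2 was -0.26 ± 0.08 and just missed the threshold (adjusted p = 0.0538; 0.0494 without DMSO a and 0.0995 to 0.150 without any other array). It passed after quantile normalization (0.0432), without genes below the 25th percentile of level (0.0324) and with trended, robust moderation of the spread (0.00783). That of EZH1 was 0.17 ± 0.07 (adjusted p = 0.123). Of 9 measured partners of the complex, 5 fell (55.6%) and 1 rose (11.1%), and the median change was -0.31. The share of falls was 17.1% over all genes and 27.2% above the median level, and the list was not tested. The histone-binding subunits RBBP7 and RBBP4, which other chromatin complexes share, fell by 0.68 ± 0.07 and 0.58 ± 0.08. SUZ12, a core subunit, fell by 0.42 ± 0.10 and lost its call without NCT-503 b (adjusted p = 0.0569), NCT-503 a (0.0543) or DMSO c (0.0647). PHF1, an accessory subunit that binds H3K36 methylation, rose by 0.47 ± 0.08.

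Of 4 measured H3K36 enzymes, 2 fell. NSD2, an H3K36 dimethyltransferase, read 7.43, 7.58 and 7.38 in DMSO and 6.83, 6.74 and 6.76 with NCT-503, and fell by 0.69 ± 0.08 (adjusted p = 0.000904). NSD1 fell from 8.03, 8.02 and 8.06 to 7.60, 7.70 and 7.53, by 0.42 ± 0.08 (adjusted p = 0.00514). NSD3 (-0.03, 95% interval -0.24 to 0.19) and SETD2, which adds the trimethyl mark (0.09, -0.09 to 0.27), did not pass, and their groups overlapped.

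Of 3 measured H4K20 enzymes, 0 passed (1 at an unadjusted limma p under 0.05). KMT5A, which adds the first methyl group and is tied to the cell cycle, read 6.16, 6.29 and 6.12 in DMSO and 6.60, 6.45 and 6.35 with NCT-503. Its change of 0.28 ± 0.09 missed the threshold (adjusted p = 0.0610), passed without NCT-503 c (0.0460) and ranged up to 0.167 without other arrays. It also passed under each of the 3 other scalings, with trended, robust moderation of the spread (0.0318) and without genes below the 25th percentile of level. KMT5B (0.07) and KMT5C (0.04), which add the further methyl groups, did not pass, and their groups overlapped. Among the other SET proteins, SETD6, which methylates the NF-kappaB subunit RELA, fell by 0.64 ± 0.11 (adjusted p = 0.0045), from 5.47, 5.82 and 5.63 to 5.13, 4.94 and 4.92. SETD5 fell by 0.35 ± 0.07 (adjusted p = 0.0103), from 8.07, 8.02 and 8.02 to 7.76, 7.63 and 7.67. SETD3, an actin histidine methyltransferase, had a change of 0.10 and SETD9 one of -0.13, and neither passed.

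Arginine methyltransferases held the largest change of all members. PRMT6, which places asymmetric dimethylation on arginine 2 of histone H3, read 7.42, 7.40 and 7.55 in DMSO and 6.22, 6.001 and 5.86 with NCT-503. It fell by 1.43 ± 0.11 (adjusted p = 0.000142), rank 182 of 14779 genes from the lowest change. PRMT7, which adds single methyl groups, read 6.56, 6.63 and 6.40 in DMSO and 6.31, 6.08 and 6.13 with NCT-503, and fell by 0.35 ± 0.10 (adjusted p = 0.0296). The PRMT7 call was lost without DMSO a (0.0870) or b (0.0897) and without NCT-503 b (0.0904) or c (0.0778). It was also lost on quantile-normalised arrays and on those centred on their 75th percentile. PRMT2, a weak enzyme of the same family, had a change of -0.31 ± 0.10 that just missed (adjusted p = 0.0541). Without DMSO c it was 0.0254, and without any other array 0.0775 to 0.145. PRMT2 passed with trended, robust moderation of the spread (0.0313) and without genes below the 25th percentile of level.

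PRMT5, the main enzyme of symmetric arginine dimethylation, read 7.04, 6.90 and 6.94 in DMSO and 7.47, 7.22 and 7.17 with NCT-503. It rose by 0.32 ± 0.10 (adjusted p = 0.0456), a call that was lost when any array but NCT-503 c was left out (0.0430 without it, up to 0.121 without DMSO b) or when all rows of the table were tested together. WDR77, the obligate partner of PRMT5, went the other way: it read 7.92, 7.92 and 7.97 in DMSO and 7.38, 7.27 and 7.28 with NCT-503, and fell by 0.62 ± 0.07 (adjusted p = 0.000780). COPRS, which recruits PRMT5 to histones, rose by 0.47 ± 0.12 (adjusted p = 0.0216), and lost its call without DMSO a (0.0732) or DMSO c (0.0600). PRMT1, the main enzyme of asymmetric dimethylation, read 5.88, 6.10 and 6.04 in DMSO and 5.99, 6.01 and 5.96 with NCT-503. Its change was -0.02 with a 95% interval from -0.22 to 0.17, which leaves out a change as large as that of PRMT6. PRMT3 (0.01), PRMT8 (0.20) and PRMT9 (-0.06) did not pass either. CARM1, the arginine methyltransferase also called PRMT4, lies outside the symbol rule. It rose by 0.44 ± 0.11 (adjusted p = 0.0226), and its call was lost without DMSO b (0.0702) or c (0.0740) and without NCT-503 b (0.0687) or a (0.0532).

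**Figure D3:**
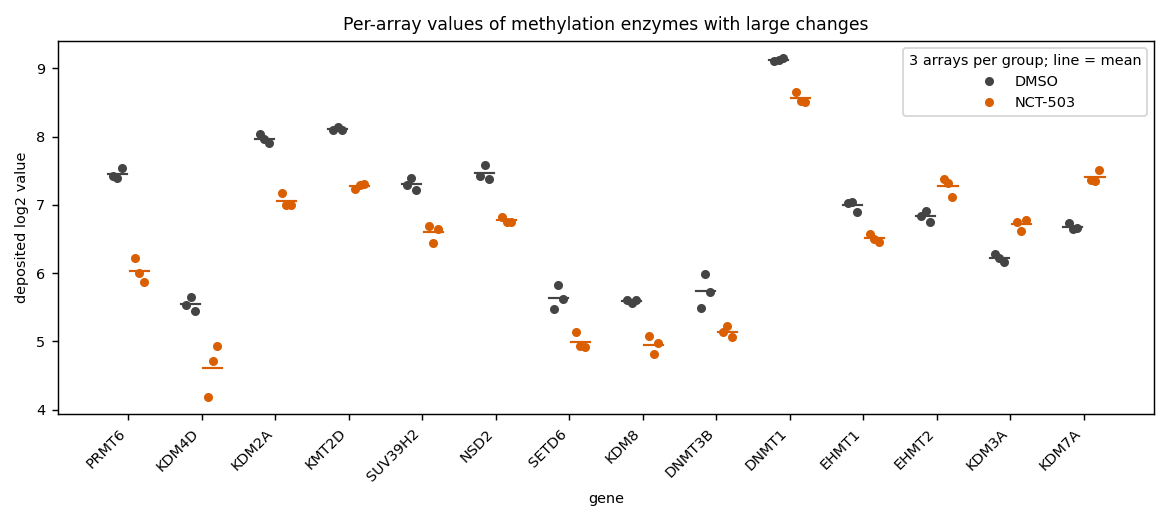
Deposited log2 value (y axis) of 14 methylation enzymes with large changes in each of the 3 DMSO and 3 NCT-503 arrays, with group means as lines. The 14 were chosen among the called members and are not the 14 largest changes. The groups do not overlap in any called member, and so not in any of the 14. PRMT6 drops from at least 7.40 to at most 6.22, while EHMT2, KDM3A and KDM7A are higher with NCT-503.

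Of 6 measured demethylases of H3K4, KDM5B rose and the others did not pass. KDM5B, a JmjC demethylase of H3K4 trimethylation, read 8.36, 8.45 and 8.27 in DMSO and 8.75, 8.68 and 8.66 with NCT-503, a rise of 0.34 ± 0.08 (adjusted p = 0.0159). The KDM5B call was lost without DMSO a (0.0508) or DMSO c (0.0589), and was kept without any other array (from 0.0222). KDM1A, the flavin-dependent LSD1, read 9.53, 9.50 and 9.47 in DMSO and 9.37, 9.37 and 9.36 with NCT-503. Its groups did not overlap, but the change of -0.13 (95% interval -0.29 to 0.03) did not pass. With trended, robust moderation of the spread it passed (adjusted p = 0.0239). KDM1B (-0.10), KDM5A (-0.03), KDM5C (0.06) and the Y-linked KDM5D also did not pass.

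Demethylases that act on H3K9 or H3K36 held most of the falls in their class, with 5 lower and 1 higher of 9 measured. These shares were 55.6% and 11.1%, against 17.1% and 16.4% of all genes. Above the median level they were 27.2% and 23.0%, and the group was not tested. KDM2A, an H3K36 demethylase that binds unmethylated CpG islands, read 8.04, 7.96 and 7.91 in DMSO and 7.18, 6.996 and 6.996 with NCT-503. It fell by 0.91 ± 0.09 (adjusted p = 0.000308). Its paralog KDM2B, which also guides polycomb complexes to CpG islands, read 6.30, 6.28 and 6.26 in DMSO and 5.82, 5.83 and 5.72 with NCT-503, and fell by 0.49 ± 0.07 (adjusted p = 0.00216). KDM4D read 5.53, 5.65 and 5.45 in DMSO and 4.19, 4.72 and 4.94 with NCT-503, the widest spread of any member (SD 0.39), and fell by 0.93 ± 0.18 (adjusted p = 0.00747). KDM4C and KDM4B fell by 0.41 ± 0.09 and 0.37 ± 0.10. The KDM4B call held without NCT-503 a (0.0189) and was lost without any other array (0.0515 to 0.0928) and after quantile normalization. KDM4A, of the same KDM4 family, had a change of 0.04 with a 95% interval from -0.12 to 0.20, which leaves out falls as large as those of KDM4B or KDM4C. KDM4E, a little-expressed paralog, had one of 0.29 (adjusted p = 0.0805). It passed with arrays centred on the median (0.0485) or on the 75th percentile (0.0328).

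KDM3A, an H3K9 demethylase known as a hypoxia target, rose from 6.28, 6.22 and 6.16 to 6.75, 6.62 and 6.78, by 0.50 ± 0.08 on the log2 scale (adjusted p = 0.00313). KDM3B, its paralog, had a change of 0.22 that did not pass (adjusted p = 0.127), but passed without NCT-503 c (0.0450), with arrays centred on the 75th percentile (0.0373) and with trended, robust moderation of the spread (0.0309). KDM7A, a JmjC enzyme acting on H3K9 and H3K27, read 6.73, 6.65 and 6.66 in DMSO and 7.36, 7.35 and 7.51 with NCT-503. Its rise of 0.73 ± 0.08 (adjusted p = 0.000560) stood at the 97.2nd percentile of all changes. KDM6B, an inducible H3K27 demethylase, read 7.39, 7.17 and 7.17 in DMSO and 7.56, 7.64 and 7.45 with NCT-503, so DMSO a came close to the treated arrays. It rose by 0.31 ± 0.10 (adjusted p = 0.0438), a call lost without DMSO b (0.122) or c (0.129), without NCT-503 b (0.125) or a (0.0977), with the replicate letter as a block (0.0648) and with all rows tested together (0.0649). KDM6A, its X-linked paralog, had a change of -0.03 with a 95% interval from -0.25 to 0.19. KDM8, a JmjC protein whose histone demethylase activity is disputed, fell by 0.64 ± 0.09 (adjusted p = 0.00172), from 5.60, 5.56 and 5.61 to 5.08, 4.81 and 4.98.

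Partners of the demethylases and other JmjC proteins went both ways, 4 higher and 3 lower of 17, with a median change of 0.12. These shares were 23.5% and 17.6%, against 16.4% and 17.1% of all genes. JMJD6, a JmjC lysyl hydroxylase, rose by 0.67 ± 0.08, and PHF21A and RCOR3, which work with KDM1A, rose by 0.57 ± 0.07 and 0.41 ± 0.08. HSPBAP1, a JmjC-domain protein, fell by 0.63 ± 0.11. Of 20 further lysine methyltransferases and PRDM proteins, 3 rose and 4 fell, with a median of 0.05. Of all genes 16.4% rose and 17.1% fell. The list's share of rises lay under that of all genes and its share of falls above it, and the list was not tested. Its called genes included falls of PRDM10 (-0.69 ± 0.10) and MECOM (-0.40 ± 0.09) and rises of PRDM8 (0.63 ± 0.13) and PRDM4 (0.52 ± 0.08).

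In the methyl donor cycle 4 of 13 measured genes fell (30.8%) and 1 rose (7.69%), with a median change of -0.04. Of all genes 17.1% fell, and of those above the median level 27.2%. AMD1, which diverts S-adenosylmethionine to polyamines, read 9.91, 10.03 and 10.04 in DMSO and 8.51, 8.42 and 8.44 with NCT-503, a fall of 1.54 ± 0.08 (adjusted p = 3.33e-05). MTRR and MTR, which together regenerate methionine from homocysteine, fell by 0.65 ± 0.17 and 0.52 ± 0.08, and MTAP, which salvages methionine from the polyamine branch, by 0.37 ± 0.09. The MTRR call was lost without DMSO b (0.0658) or c (0.0642) and without NCT-503 a (0.0673) or b (0.0623), and the MTAP call without DMSO c (0.0586). AHCY, which removes the inhibitory product S-adenosylhomocysteine, had a change of 0.26 that did not pass. Of 6 measured genes of 2-oxoglutarate supply, 2 rose and 2 fell (33.3% each, a count of few genes). Of all genes 16.4% rose and 17.1% fell, and of those above the median level 23.0% and 27.2%. The called genes of this list included D2HGDH (-0.74 ± 0.19), OGDH (-0.41 ± 0.10) and IDH3B (0.49 ± 0.10). The OGDH call was lost without DMSO b (adjusted p = 0.0585), and that of D2HGDH without DMSO a (0.0755) or b (0.0674) and with the replicate block (0.0529). In the RNA methylation list 3 of 9 fell (33.3%, against 27.2% of all genes above the median level) and 1 rose (11.1%). METTL3, the catalytic subunit of the messenger RNA m6A writer, fell by 0.94 ± 0.07, from 7.18, 7.21 and 7.22 to 6.26, 6.26 and 6.25, while its partner METTL14 had a change of -0.13 that did not pass.

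**Figure D4:**
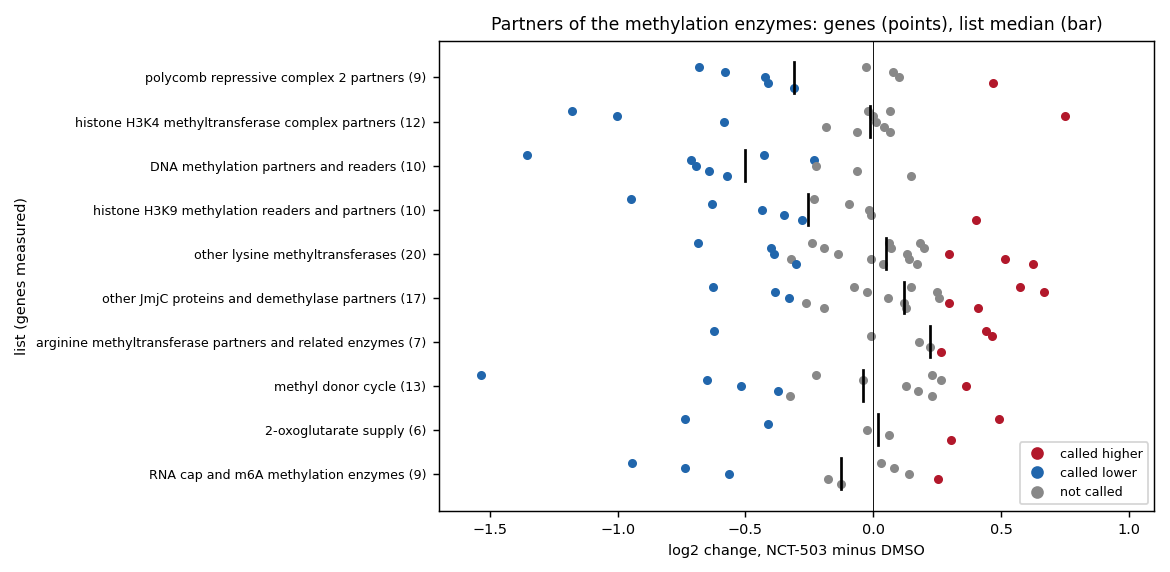
Log2 change (x axis) of each measured gene in 10 lists of partners and cofactor enzymes, coloured by call, with the list median as a black bar. The DNA methylation partners lie farthest to the left (median -0.50, 7 called lower and none higher), and the arginine methyltransferase partners farthest to the right (median 0.22).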

How the data were processed

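The deposited series table holds 1 column per array. Per the submitters' processing notes the authors used Partek; its version, summarisation, background correction and between-array scaling stay unknown, being not given in the sources used here. Values deposited by the authors were read as log2 from their range, 0.578 to 13.6. Of 31135 rows, 15098 had 1 gene symbol in the platform annotation, all matched by Entrez identifier to the RefSeq table of GRCh38.p14, and the row with the highest mean was used per gene (14779 genes). Genes were tested two-sided in R 4.3.3 by limma 3.58.1 (lmFit, then eBayes, no covariates); p-values were adjusted by Benjamini-Hochberg over all genes, and an adjusted p under 0.05 was a call. The steps were tested on simulated data. Members, roles, lists, motifs and named genes were chosen with earlier results of these data known. All 55 members were kept. Values are given per array for 18 genes listed by name, where analysed, and for up to 4 called members per role. Up to 4 called genes are named per partner list, and PCNA was named apart from the lists. Members that did not pass are given by their change, except the Y-linked KDM5D, which is named without a value and left out of the plots. Alternatives were other moderation, a replicate block, 3 scalings, a filter at the 25th percentile of level, other row choices, a threshold of 0.01 and leaving out each array. A probe's background was not used here, so folds of dim genes may be understated.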

Additional observations from a re-analysis of the deposited data

How the results depend on the processing

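None of the 28 called members changed sign in any alternative run, and 20 kept their call without each array in turn. Members called lower numbered 14 to 26 over the alternatives with all arrays and members called higher 2 to 12, against 21 and 7. With trend and robust moderation 26 were called lower, 17 of them methyltransferases, and 10 higher, 5 of them methyltransferases; above the 25th percentile of level 24 were called lower, 17 of them methyltransferases. With arrays centred on the 75th percentile 12 members were called higher, 5 methyltransferases and 7 demethylases, and 19 were called lower. That centring moved the median change of all genes from 0.06 to 0.13, and centring on the median moved it to 0.11; the higher share of member calls was 7 of 28 on the deposited scale and 12 of 31 with the former. At an adjusted p under 0.01, 2 members were called higher, 0 methyltransferases and 2 demethylases, and 4 demethylases were called lower, beside 1226 higher and 1682 lower calls over all genes; these fewer calls follow from the stricter threshold. For methyltransferases called higher, the count at an unadjusted limma p under 0.05 was 4. Without 1 array in turn, members called higher numbered 4 to 8 and lower 18 to 20, methyltransferases called higher 1 to 3 and lower 13 to 15, and demethylases called higher 2 to 5 and lower 5 to 6.

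Members that did not pass and lay near 0 changed sign under some settings. Centring adds a constant to every change, so such flips follow from the shift itself. Centring on the median turned KDM5A (0.0175), KDM6A (0.0127), NSD3 (0.0158) and PRMT1 (0.0217), and centring on the 75th percentile KDM5A (0.0437), KDM6A (0.0390), NSD3 (0.042), PRMT1 (0.0480) and PRMT9 (0.00761). Quantile normalization turned KDM5A (0.0279), KDM6A (0.0345), PRMT1 (0.0725) and PRMT9 (0.00524). The cause of the flips under quantile normalization or without 1 array was not tested. Without 1 array in turn, the change ran from -0.0180 to 0.156 for KDM5C, from -0.0928 to 0.0472 for KDM6A, from -0.0269 to 0.0895 for KMT5C, from -0.0740 to 0.0498 for NSD3, from -0.0823 to 0.0256 for PRMT1 and from -0.0343 to 0.0573 for PRMT3.

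Replicate letters did not pair the arrays: the deviations of same-lettered arrays correlated by 0.0036, 0.0026 and 0.0375 for a, b and c, and DMSO b, NCT-503 a and NCT-503 b correlated best with another letter. With the replicate block 6 members were called higher and 21 lower, against 7 and 21, and KDM6B was the member that lost its call. Scanner signals over background were not used here.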
